A study of Mus musculus with 2 samples.

Results

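The 31 genes described here encode the enzymes of cholesterol synthesis, the enzymes of fatty acid synthesis, and the proteins that switch both sets on and off. They were chosen by name: 17 sterol synthesis enzymes, 8 fatty acid synthesis and desaturation enzymes, and 6 genes of SREBP control and sterol transport. Of the 20660 genes with a probe matched to RefSeq on the arrays, all 31 were found, and all 31 were detected, which means that every spot of the gene's brightest probe was well above background on both arrays. Gene expression was measured in primary articular chondrocytes, the cells that make cartilage, released with collagenase from C57BL/6J mice at 6 days of age. The cells were held for 48 h in fibronectin-coated stretch chambers and then stretched cyclically by 10% at 0.5 Hz for 30 min. RNA was taken before loading and 24 h after loading, and 1 array was hybridised per time point. Both groups share strain, age, coating and chamber, and the sources used here do not say whether animals were pooled. The only control was taken before loading, and what loading did cannot be told apart from what another 24 h in culture did. The methods put most experiments in serum-free medium before the stimulus, without saying so for the arrays. With 1 array per time point no replicate error exists, no test was possible and no p-value is given.

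Cholesterol is built from acetyl-CoA through mevalonate, activated isoprene units, farnesyl diphosphate and squalene, which is closed into lanosterol and then trimmed to cholesterol in a chain of oxidations, reductions and demethylations. Fatty acids are built from the same acetyl-CoA, released from citrate in the cytosol, and are then elongated and desaturated. Both branches are under the SREBP transcription factors. When membranes hold little sterol, the escort protein SCAP carries SREBP from the endoplasmic reticulum to the Golgi for cleavage, and when sterol is plentiful INSIG proteins hold the complex back. SREBP2 is known mainly for the sterol branch and SREBP1 mainly for the fatty acid branch.

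SREBPs bind sterol regulatory elements close to the start of their target genes, commonly beside CCAAT boxes bound by NF-Y and GC boxes bound by Sp1. The 250 bases before the annotated start are shown, from RefSeq on GRCm38.p6, for the 5 members that were more than 1.5-fold lower at 24 h and for Tm7sf2, the member with the highest ratio. The windows are chr10:76531355-76531604, chr5:28071162-28071411, chr13:119690101-119690350 and chr13:8885356-8885605 on the plus strand, and chr8:122443423-122443672 and chr19:6067851-6068100 on the minus strand. Each runs 5′ to 3′ in the direction of its gene and ends at the base before the start. Capitals mark CCAAT on either strand, which reads ATTGG on the opposite strand, and the sterol regulatory element TCACNCCAC.
Lss: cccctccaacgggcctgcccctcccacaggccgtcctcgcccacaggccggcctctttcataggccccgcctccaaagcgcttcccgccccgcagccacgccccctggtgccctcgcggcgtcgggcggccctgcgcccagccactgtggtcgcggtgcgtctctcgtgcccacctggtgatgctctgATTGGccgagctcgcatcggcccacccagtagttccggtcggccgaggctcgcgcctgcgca
Insig1: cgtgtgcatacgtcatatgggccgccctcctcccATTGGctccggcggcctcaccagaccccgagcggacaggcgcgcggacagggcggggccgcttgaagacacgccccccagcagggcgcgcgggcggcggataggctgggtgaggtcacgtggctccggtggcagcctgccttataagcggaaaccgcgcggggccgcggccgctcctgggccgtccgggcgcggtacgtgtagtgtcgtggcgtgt
Hmgcs1: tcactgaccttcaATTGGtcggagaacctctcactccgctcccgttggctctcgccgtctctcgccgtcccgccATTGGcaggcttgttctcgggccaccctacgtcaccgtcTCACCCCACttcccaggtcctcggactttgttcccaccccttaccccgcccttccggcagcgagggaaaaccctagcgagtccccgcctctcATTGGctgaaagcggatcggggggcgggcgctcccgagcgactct
Idi1: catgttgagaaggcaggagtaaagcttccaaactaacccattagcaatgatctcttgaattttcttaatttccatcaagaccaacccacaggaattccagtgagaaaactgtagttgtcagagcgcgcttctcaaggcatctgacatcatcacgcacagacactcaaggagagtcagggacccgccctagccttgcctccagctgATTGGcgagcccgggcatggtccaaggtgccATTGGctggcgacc
Mvd: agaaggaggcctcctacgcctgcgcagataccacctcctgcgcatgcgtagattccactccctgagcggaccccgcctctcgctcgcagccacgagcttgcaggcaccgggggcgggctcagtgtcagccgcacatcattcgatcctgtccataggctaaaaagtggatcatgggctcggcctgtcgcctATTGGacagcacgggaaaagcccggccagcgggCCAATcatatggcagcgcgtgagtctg
Tm7sf2: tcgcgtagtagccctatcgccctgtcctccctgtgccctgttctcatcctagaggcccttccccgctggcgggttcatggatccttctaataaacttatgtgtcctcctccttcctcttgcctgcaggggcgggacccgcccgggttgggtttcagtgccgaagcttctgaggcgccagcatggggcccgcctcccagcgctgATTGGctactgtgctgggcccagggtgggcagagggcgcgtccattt

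All 6 printed windows hold a CCAAT box. In Lss it begins 62 bases before the start, in Tm7sf2 47 bases before it, and Hmgcs1 holds 3 of them, 237, 176 and 45 bases upstream. Hmgcs1 is also the only member whose window matches TCACNCCAC, as TCACCCCAC beginning 137 bases before the start. Of the 31 members, 24 had a window in the table, 5 of them more than 1. A CCAAT box was found in 19 of these 24 genes, in all 14 of the sterol enzymes with a window, in 4 of 5 control genes and in 1 of 5 fatty acid enzymes (Fasn). Over all 27025 genes with a window, 37.5% held one. The GC box GGGCGG was found in 20 of 24 members against 35.4% of all genes, the E-box CACGTG in 5 of 24 against 6.86%, and TCACNCCAC in 1 of 24 against 1.22%. Every motif was searched on both strands, and the matches of different motifs may overlap. Tm7sf2, the member with the highest ratio, and Lss, with the lowest, both carry a CCAAT box and a GC box. The match of letters is a description of the windows, and binding was not measured.

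The module as a whole was lower 24 h after loading than before it. The log2 ratio, 24 h minus before, is given throughout on intensities scaled to each array's 75th percentile. Its median was -0.36 over the 31 members and -0.01 over the 14222 detected genes. A total of 25 members were lower and 6 higher, where 52.4% of all detected genes were lower and 47.6% higher. Lss, Insig1, Hmgcs1, Idi1 and Mvd were more than 1.5-fold lower, 5 of 31 members against a background of 5.84%, and 0 members were more than 1.5-fold higher against 3.66%. At the study's limit of 2-fold, 0 members passed in either direction, where 1.83% of detected genes were lower and 0.668% higher. The members are bright genes: by the mean of both arrays 30 of 31 lay above the 75th percentile, Fasn being the exception, and Fads2 lay below it on the 24 h array. Among the 8564 detected genes above that level, 3.15% were more than 1.5-fold lower and 2.1% more than 1.5-fold higher, 0.899% and 0.315% passed 2-fold lower and higher, and 50.6% were lower and 49.4% higher at all.

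The error that the scanner software gives for a log2 ratio was close to 0.20 for every member and covers within-array error only. Of the 31 members, 18 were lower by more than this error, where the background is 22.9% of detected genes, and 1 member, Tm7sf2, was higher by more than it, where the background is 20.4%. Among the genes above the 75th percentile these backgrounds are 19.5% and 19.4%. The ratio exceeded 2 such errors in 13 members, and in 2420 of all 14222 detected genes. Repeat spots give a second view of this error: for the 264 probes spotted 8 or more times, repeats had a median SD of 0.09 on the log2 scale. The plot of log2 ratios by member sets each value beside its error.

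**Figure D1:**
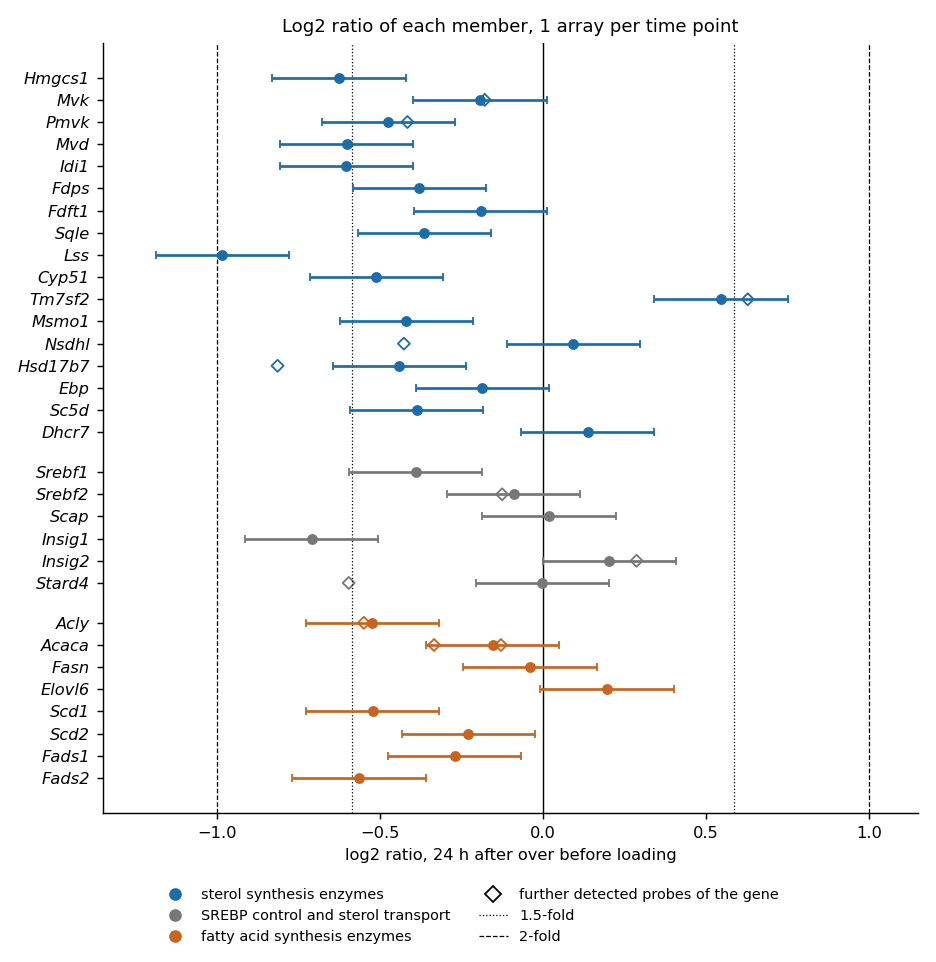
Log2 ratio (24 h after over before loading, 75th percentile scaling) of the brightest probe of each member, with bars for the software's within-array error of about 0.20 and open diamonds for further detected probes of the same gene. 25 points lie left of 0, Lss is farthest left at -0.98, and Tm7sf2 is farthest right at 0.55.

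The enzymes from acetoacetyl-CoA to squalene shared a direction: 7 of 7 were lower, with a median log2 ratio of -0.47. Hmgcs1, which makes HMG-CoA in the cytosol, went from an intensity of 31303 to 20285, a log2 ratio of -0.63 or 1.54-fold lower. Idi1, which isomerises the activated isoprene unit, went from 11157 to 7341 (log2 ratio -0.60). Mvd, the mevalonate diphosphate decarboxylase, went from 2706 to 1783 (log2 ratio -0.60). Of all detected genes, 5.01% had a lower ratio than Hmgcs1, 5.43% than Idi1 and 5.47% than Mvd.

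The other enzymes of the stretch were lower by less. Pmvk, the phosphomevalonate kinase, went from 22139 to 15932 (log2 ratio -0.47), and its second probe gave -0.42. Fdps, which joins isoprene units into farnesyl diphosphate for sterols and for protein prenylation, went from 50370 to 38699 (log2 ratio -0.38). Mevalonate kinase (Mvk) and squalene synthase (Fdft1), the first kinase and the enzyme that commits farnesyl diphosphate to sterols, both stayed within the within-array error. Mvk went from 15913 to 13910 and Fdft1 from 5038 to 4408, each with a log2 ratio of -0.19.

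The 10 enzymes after squalene were more mixed, with 7 lower, 3 higher and a median of -0.38. Lanosterol synthase (Lss), which closes squalene epoxide into the first sterol, had the lowest ratio of all members. Its intensity went from 3181 to 1609, a log2 ratio of -0.98 or 1.98-fold lower, and 1.85% of detected genes had a lower ratio. It is represented by 1 probe. Without Lss the median of the sterol enzymes was -0.38 in place of -0.39, and 13 of the remaining 16 were lower.

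Squalene epoxidase (Sqle), which acts just before Lss, went from 22790 to 17700 (log2 ratio -0.36). Cyp51, the lanosterol demethylase that acts just after it, went from 2606 to 1828 (log2 ratio -0.51). Both were lower by more than the within-array error, and both by less than 1.5-fold. Msmo1, the methylsterol oxidase, went from 33884 to 25326 (log2 ratio -0.42), and Hsd17b7, the sterone reductase of the same demethylation cycle, from 1341 to 987 (log2 ratio -0.44). A second probe of Hsd17b7 had a log2 ratio of -0.81. Sc5d, the desaturase that introduces a late ring double bond, went from 7270 to 5555 (log2 ratio -0.39). Ebp, the sterol isomerase upstream of it, went from 8659 to 7603 (log2 ratio -0.19), within its error.

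The 3 sterol enzymes that were higher at 24 h all act after lanosterol. Tm7sf2, a sterol reductase whose step the lamin B receptor can also carry out, went from 2536 to 3699, a log2 ratio of 0.55 or 1.46-fold higher, and 4.4% of detected genes had a higher ratio. Its second probe gave 0.63. Nsdhl, the dehydrogenase of the demethylation cycle, went from 662 to 705 (log2 ratio 0.09), and its dimmer probe had the opposite sign, at -0.43. Dhcr7, a final reductase of the pathway, went from 1365 to 1499 (log2 ratio 0.14). Of these 3, Tm7sf2 alone passed its within-array error.

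**Figure D2:**
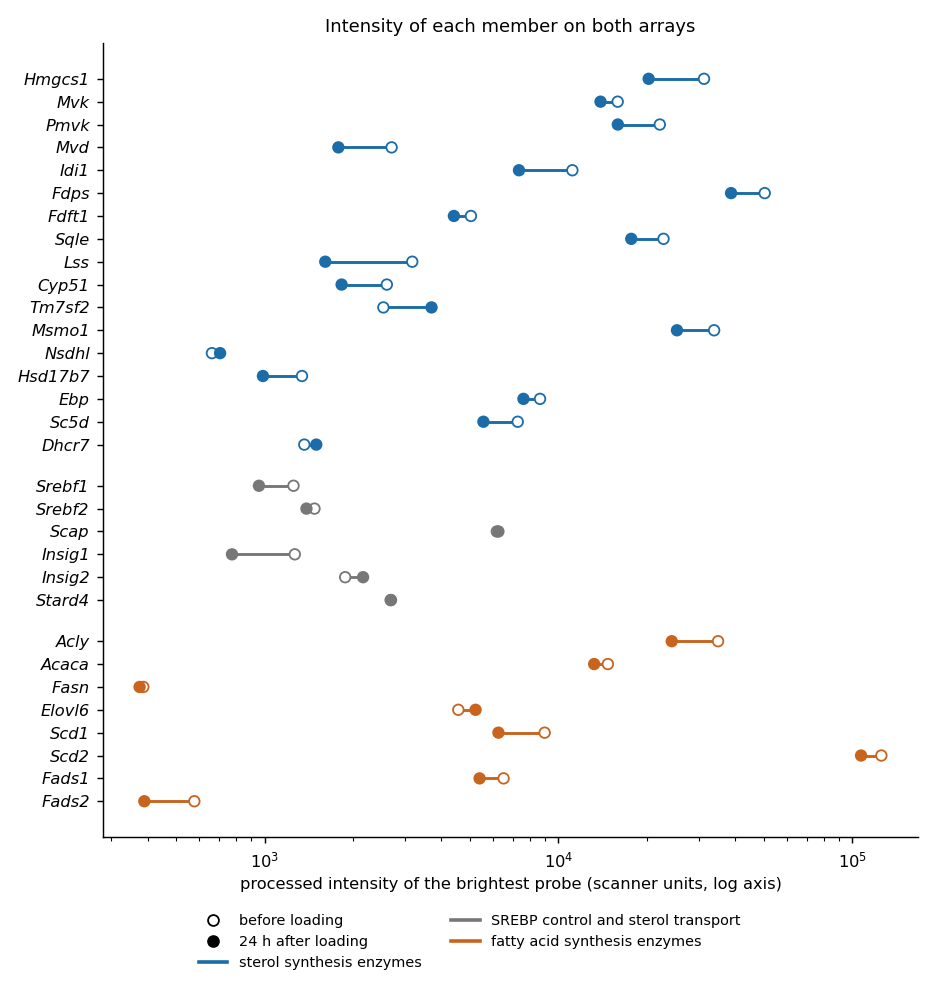
Processed intensity (scanner units, log axis) of the brightest probe of each member before loading (open) and 24 h after loading (filled), joined by a line and coloured by role. Filled points lie left of open points in 25 of 31 members; intensities of different genes come from different probes and cannot be ranked against each other.

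The genes of SREBP control and sterol transport did not move as one. Their median log2 ratio was -0.05, with 4 lower and 2 higher. Insig1, the sterol-sensing retention protein and itself a classical SREBP target, went from 1267 to 774, a log2 ratio of -0.71 or 1.64-fold lower, the second lowest ratio of the module. Insig2, which does the same work and is not known as an SREBP target, went from 1880 to 2164 (log2 ratio 0.20), and its second probe gave 0.29. The genes of the 2 INSIG proteins thus had ratios of opposite sign. Insig1 lay beyond its within-array error and Insig2 just within it on its brightest probe, while the second Insig2 probe passed its own error of 0.20.

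Srebf1, the gene of SREBP1, went from 1254 to 957 (log2 ratio -0.39), beyond its error, while Srebf2, the gene of SREBP2, went from 1478 to 1388 (log2 ratio -0.09), within it. Scap, the gene of the escort protein, went from 6172 to 6248 (log2 ratio 0.02). Cleavage of SREBP, a step on the protein, was not measured. Stard4, a cytosolic carrier of cholesterol, went from 2692 to 2686 on its brightest probe (log2 ratio -0.00), but its second detected probe went from 362 to 239 (log2 ratio -0.60). This was the widest disagreement between probes of one member, 0.59, where the median range over the 10 members with several detected probes was 0.08.

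The fatty acid enzymes were lower on the whole, with 7 of 8 lower, 5 of these beyond the within-array error, and 0 more than 1.5-fold lower. Fads2, the delta-6 desaturase that starts the synthesis of long polyunsaturated fatty acids, went from 577 to 390 (log2 ratio -0.56). Acly, which splits citrate to supply acetyl-CoA to both branches, went from 34946 to 24308 (log2 ratio -0.52), and its second probe gave -0.55. Scd1, a stearoyl-CoA desaturase that makes oleate, went from 8978 to 6250 (log2 ratio -0.52). These 3 lay just inside the 1.5-fold limit, which is 0.58 on the log2 scale.

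The other desaturases among the members were lower by less. Fads1, the delta-5 desaturase, went from 6507 to 5392 (log2 ratio -0.27), and Scd2 from 125668 to 107185 (log2 ratio -0.23), both beyond their within-array errors. Scd1 and Scd2 are close paralogues and the probe sequences were not used here, so that their signals may not be fully separate. The remaining members of the branch make and elongate saturated fatty acids. Acaca, the acetyl-CoA carboxylase of the cytosol, went from 14735 to 13232 (log2 ratio -0.15, with -0.13 and -0.33 on its other probes). Fasn, the fatty acid synthase, went from 386.5 to 375.4 (log2 ratio -0.04), and Elovl6, which elongates its product palmitate, from 4564 to 5225 (log2 ratio 0.20). On their brightest probes all 3 stayed within the within-array error, and the dimmest probe of Acaca, at -0.33, passed its own error of 0.23.

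The branches were then set against each other. The median log2 ratio was -0.39 over the 17 sterol enzymes, or 1.31-fold lower, and -0.25 over the 8 fatty acid enzymes, or 1.19-fold lower. The difference of the medians, sterol minus fatty acid, was -0.14, where the within-array errors of the members give the difference an error of 0.11. This error counts the members of a branch as repeats of 1 value, and it leaves out the spread between genes and between cultures. With means in place of medians the branches lay at -0.33 and -0.26 and the difference shrank to -0.06. The ranges overlapped widely, from -0.98 to 0.55 in the sterol branch and from -0.56 to 0.20 in the fatty acid branch. Beyond the within-array error, 11 of 17 sterol enzymes were lower and 1 higher, and 5 of 8 fatty acid enzymes were lower and 0 higher. The sterol branch holds all 4 of the enzymes that were more than 1.5-fold lower, and the fatty acid branch holds none of them. With 1 array per time point these data do not show that the branches differed.

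**Figure D3:**
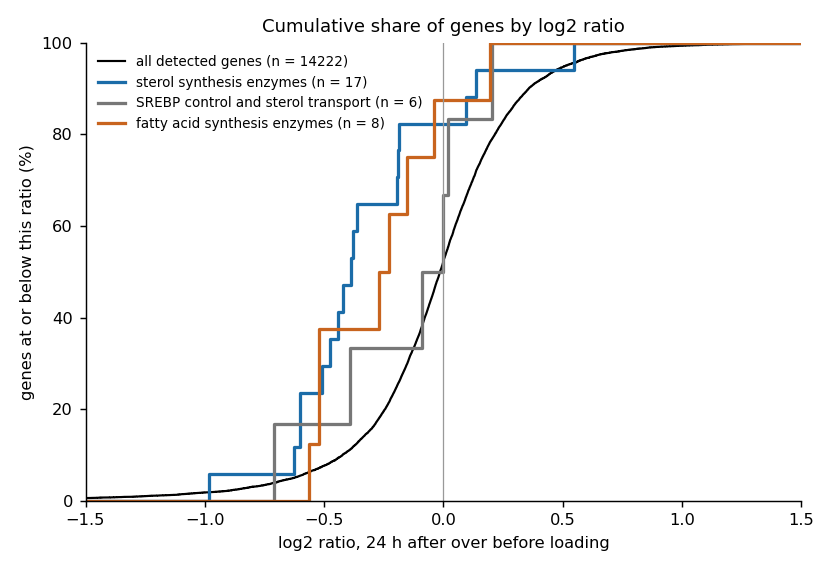
Cumulative share of genes (%) at or below each log2 ratio (24 h after over before loading) for all 14222 detected genes and for the members by role. The curves of the sterol and fatty acid enzymes lie left of the black curve of all genes over most of their length and cross each other, and the 6 control and transport genes lie nearer to it, with a median of -0.05.

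How the arrays are scaled moves every ratio a little. When each array was scaled by its median, all ratios were 0.10 higher on the log2 scale, and scaling to 7 spike-in control probes made them 0.08 higher. Under 5 other ways of scaling or background correction, 28 of 31 members kept their sign, and the exceptions were Stard4, Fasn and Srebf2, all near 0. The count of members more than 1.5-fold lower went from 5 to 2 or 3 under these 5, with Lss and Insig1 passing under each of them, and Tm7sf2 passed 1.5-fold higher with median and spike-in scaling. The medians of both branches stayed below 0 under all 11 alternatives, in a range of -0.41 to -0.29 for the sterol enzymes and of -0.27 to -0.15 for the fatty acid enzymes.

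**Figure D4:**
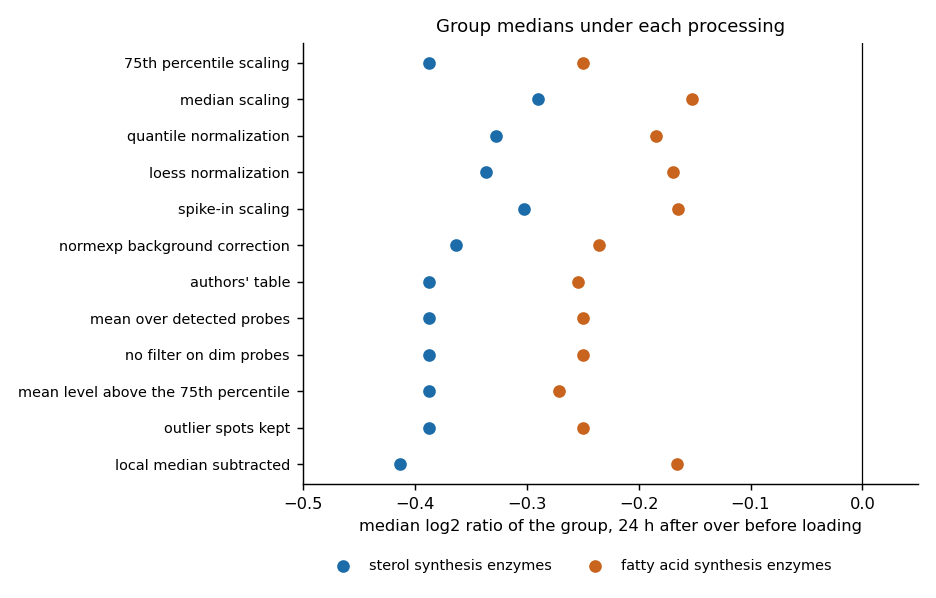
Median log2 ratio (24 h after over before loading) of the 17 sterol and the 8 fatty acid enzymes under the processing reported and under 11 alternatives (7 fatty acid enzymes where the level had to exceed the 75th percentile). The sterol median lies between -0.41 and -0.29 and below the fatty acid median, which lies between -0.27 and -0.15, in every row.

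A few further genes of isoprenoid and sterol handling gave values beside the members. Nus1, a subunit of the enzyme that makes the dolichol chain, went from 3800 to 2530 (log2 ratio -0.59), while Ggps1, the geranylgeranyl diphosphate synthase, went from 1717 to 2152 (log2 ratio 0.33). Dhdds, a gene of the same list, stayed level, from 981.0 to 981.8 (log2 ratio 0.002). These enzymes draw on the same isoprene units as the sterol branch, and Nus1 and Ggps1 had ratios of opposite sign. Idi2, the paralogue of Idi1, was not well above background. Npc2 and Lipa, which free cholesterol from lipoprotein in lysosomes, had log2 ratios of 0.35 and 0.30. They belong to a list of 7 sterol uptake genes, all detected, with 4 lower, 3 higher and a median of -0.03.

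Export, storage and sensing of sterol did not share one direction. In the list of export, storage and LXR genes, 7 of 9 were detected with a median of 0.14. Nr1h3, the gene of the sterol-sensing receptor LXR alpha, was higher, from 384 to 645 (log2 ratio 0.75), and its known targets Abca1, Abcg1 and Mylip had log2 ratios of -0.25, -0.31 and 0.15. Of the 7 detected genes of the list, 2 were lower and 5 higher. The 8 genes of SREBP cleavage and sterol-regulated degradation had a median of 0.06, with 2 lower and 6 higher, none by more than 1.5-fold.

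Of 24 further genes of lipogenesis and lipid assembly, 16 were lower and 8 higher, with a median of -0.06. Past 1.5-fold lower were Thrsp (log2 ratio -0.66), Elovl7 (-0.64) and Acsl3 (-0.59), and Acss2, which makes acetyl-CoA from acetate, lay just inside at -0.58. The calls of Thrsp, Elovl7 and Acsl3 were each lost under at least 1 other scaling, where their ratios nearest to 0 were -0.53, -0.43 and -0.49. The 12 genes of fatty acid oxidation had a median of 0.04, with 3 lower and 9 higher, and 0 passed 1.5-fold. The plot of related gene lists places these values beside the members.

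**Figure D5:**
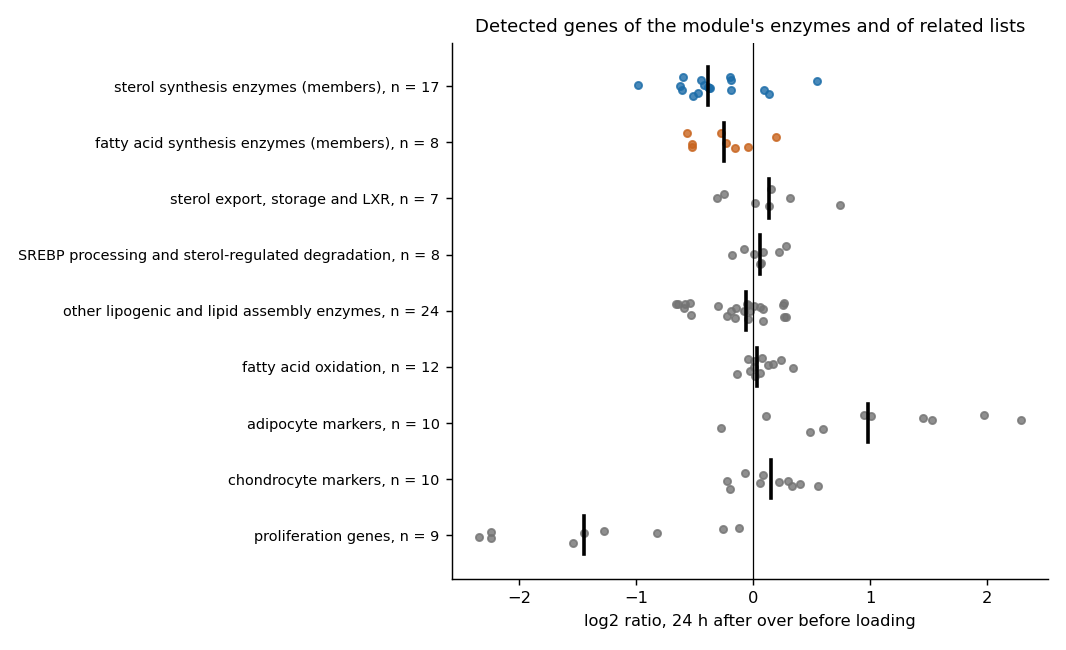
Log2 ratio (24 h after over before loading) of each detected gene in the 2 enzyme branches and in 7 related lists, with a black bar at each list's median. The sterol enzymes have a median of -0.39 and the fatty acid enzymes -0.25, against 0.04 for fatty acid oxidation, 0.98 for adipocyte markers and -1.45 for proliferation genes.

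Markers of other cell types and of growth moved between the same 2 arrays, and their part in the values above was not tested. Summed intensities of a list run over all its matched genes, detected or not. The cells were chondrocytes by their defining markers: all 10 were detected, with a median of 0.15 and a summed intensity of 1.17e+06 before and 1.21e+06 at 24 h. Col2a1, the main cartilage collagen, had 499543 and 474876 (log2 ratio -0.07, with the sign turned under other scalings), and Acan, the main proteoglycan, had a log2 ratio of 0.34. Adipocyte markers were present and higher at 24 h: 10 of 12 were detected, and 9 of these were higher. The summed intensity of all 12 was 3225 before and 5479 at 24 h. More than 2-fold higher were the adipokine genes Adipoq (log2 ratio 2.29), Cfd (1.98) and Retn (1.45), and the lipid droplet genes Cidea (1.53) and Plin1 (1.01). Of these, Adipoq (intensities of 54.2 before and 265 at 24 h), Cfd (26.9 and 106), Retn (35.3 and 96.4) and Plin1 (61.7 and 124) were dim. With normexp background correction Adipoq had 1.28, Cfd 0.97, Retn 0.66 and Plin1 0.62. Among these dim genes Adipoq alone stayed past 2-fold with normexp. Fabp4, the fatty acid binding protein of adipocytes, had 0.95, Pparg, their master regulator, had -0.27, and Lep and Cidec were not well above background.

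Proliferation genes had the lowest median of the lists described here, -1.45, with 9 of 9 detected genes lower and a summed intensity of 33314 before and 15548 at 24 h. Aurka (-2.34), Ccnb1 (-2.24), Plk1 (-2.24), Mki67 (-1.54), Top2a (-1.45) and Cdk1 (-1.27), all active in dividing cells, were more than 2-fold lower. The other detected genes of the list were lower by less: Mcm5 (-0.82), Pcna (-0.25) and Mcm2 (-0.12, within its error of 0.20). Of the macrophage markers 6 of 6 matched genes were detected, with a median of -0.01 and a summed intensity of 4278 and 4066. Ptprc, the pan-leukocyte gene, was dim and had a log2 ratio of 1.14, or 0.40 with normexp. Of the fibroblast and tenocyte markers 5 of 6 were detected, with a median of -0.04, summed intensities of 48240 and 47880 and the matrix gene Dpt at 2.10, or 1.34 with normexp. Detected markers were few for endothelium (1 of 5, with intensities of 112 and 130 in Pecam1), osteoblasts (2 of 3) and skeletal muscle (2 of 5). Over all matched genes the summed intensities were 120 and 83.8 for the osteoblast list and 1089 and 883 for the skeletal muscle list. In bulk RNA, fewer cells of a type and less RNA per cell cannot be told apart.

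The position of the spots was looked at as well. Both arrays lay on the same slide, and no member spot carried an outlier flag or was saturated. Within 100 µm of each member's spot, at most 1 neighbour had changed more than 2-fold in the same direction. When the median ratio of these neighbours was subtracted, 5 members were again more than 1.5-fold lower, with Cyp51 at -0.61 in and Hmgcs1 at -0.54 out. Mvk moved from -0.19 to -0.42.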

How the data were processed

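Labelled RNA of primary chondrocytes before loading and at 24 h was hybridised to 2 one-colour SurePrint G3 Mouse arrays, 1 each. The authors deposited, for each spot, the processed intensity and its error from Feature Extraction 10.10.1.1, after background subtraction and with no normalization between arrays. The authors' own table holds the same intensity values rounded, within 0.497%. Of 59305 spots, 59.1% and 57.7% were well above background, and outlier spots (141 and 138) were left out. Log2 intensity minus each array's 75th percentile (466.4 and 466.2) was averaged over spots of a probe, and 27235 of 55678 probes were named through RefSeq. The files and the methods name different scanner models. Probe design coordinates refer to another build and were not used. A gene is its brightest probe. All 31 members are named, and from other lists the detected genes past 2-fold and the defining markers of chondrocytes and adipocytes. Other genes of the lists were named after their values were seen, and some genes and lists are not reported here. Members and lists were chosen with earlier results of these data known. There were 11 alternatives: scaling by the median, quantile, loess or spike-in probes, normexp (limma 3.58.1, R 4.3.3, on the median spot signal), the authors' table, and choices of probe, filter, outliers and position, and for the difference of branches means and a wider sterol branch too. Python 3.11.15, numpy 2.4.6, pandas 2.3.3 and matplotlib 3.10.9 were used, and the scripts were tested on simulated data. Promoter windows came from RefSeq on GRCm38.p6.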

Additional observations from a re-analysis of the deposited data

How the results depend on the processing

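The medians of both branches stayed below 0 and the sterol median below the fatty acid median under all 11 alternatives, and the difference of branches ran from -0.25 (local median subtracted) to -0.06 (means) over its 13. Formed from the members' within-array errors alone, the error of a median was 0.06 for the sterol and 0.09 for the fatty acid enzymes. The sterol median moved by more than this to -0.29 when scaled by the median and to -0.30 by spike-ins. The fatty acid median did so to -0.15 when scaled by the median. Members more than 1.5-fold lower numbered 5, and 2 under each of median scaling, quantile normalization, spike-in scaling and normexp, 3 with loess, and 6 with the mean over probes. Members more than 1.5-fold higher numbered 0, and 1 (Tm7sf2) with median scaling, spike-in scaling and the mean over probes. At 2-fold the count was 0 under all of them. The means over probes took Nsdhl to -0.17 and Stard4 to -0.30. No paired analysis was possible because each time point has 1 array, and leaving out a sample would leave no comparison. The number of arrays limits the precision, and spots counted as well above background down to an intensity of 17.3 and 17.8 on the 2 arrays, below every member's brightest probe.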
